A study of Mus musculus with 5 samples.

Results

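Chromosome 4 of the mouse is described here as 2977 bins of 50 kb, all the bins listed on it with a value in each of 5 Hi-C libraries, out of 50542 such bins in the whole series. The chromosome was chosen because, in these same files, most of its bins with a different compartment in the Late and Basal libraries had passed from compartment B to compartment A. That choice used the signs of the Late and Basal values, so the numbers of switched bins between these states are a description and support nothing. The libraries came from hippocampal nuclei that were stained with antibodies to GFP and to the neuronal protein NeuN before flow sorting. By their titles they are Basal (replicates 1 and 2), Early (replicate 1) and Late (replicates 1 and 2). The mice of all 3 states had the strain label ArcCreERT2 x R26R-STOP-floxed eYFP and the genotype label +/+. In this cross the promoter of Arc, a gene switched on in active neurons, drives a Cre recombinase that needs tamoxifen, and the recombinase turns on a yellow fluorescent protein for good. All 3 states also share the treatment label: foot shock on day 0, no recall, and tissue taken on that day. The protocol, by contrast, describes 4-Hydroxytamoxifen given before contextual fear conditioning, and collections 1.5 to 2 h and 5 days after it, so the times behind the 3 names are not given by the labels. The libraries were made with a Dovetail kit, and the labels give 100000 nuclei and 2 pooled animals per group. Whether the replicates of a state came from separate animals is not stated, nor are the sorted gate and the animals' age and sex. A second Early library was not analysed here. The files hold no expression values, so the labelled cell type could not be checked against marker genes.

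Interphase chromosomes are folded so that active, gene-rich stretches contact each other (compartment A), while silent, gene-poor stretches contact each other and lie more often at the nuclear lamina (compartment B). The 2 classes appear as a checkered pattern in a Hi-C contact map, and the first principal component of that map, PC1, gives each bin a score along it. A score above 0 marks A and one below 0 marks B in the convention of HOMER, the program named in the submitters' processing notes. Most of the pattern is shared between cell types. The bins that differ between cell types lie mostly at borders of compartments or in stretches of intermediate score.

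Mouse chromosome 4 has its centromere at the low-coordinate end. In the RefSeq table of another genome build, GRCm38.p6, it carries 1328 protein-coding genes. Among those with a role in neurons, the order from the centromere runs Penk (the enkephalin precursor), Epha7 (a receptor for ephrins), Cnr1 (the cannabinoid receptor of neurons), Grin3a (a subunit of NMDA receptors), Astn2, Ptprd (a synaptic adhesion receptor), Nfib, Elavl2, Nfia, Pde4b, Dab1 (the adaptor of reelin signalling), Grik3 (a subunit of kainate receptors), Camta1 and Gabrd (a subunit of GABA receptors). The chromosome also carries families of tandem genes, among them 22 Mup genes for urinary proteins, 14 genes for alpha interferons, 11 Skint genes and 24 genes of the Pramel and Pramef families. The bins are on the build mm9, for which no gene table or genome was used here. No gene was therefore placed in a bin, no sequence is printed, and regions are named by their mm9 coordinates alone.

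In the Basal state chromosome 4 was divided into a mainly B proximal part and a mainly A distal part. By the mean of the 2 Basal libraries it held 62 runs of A and 69 runs of B. The longest A run lay at chr4:122550001-142050000, with a mean PC1 of 1.32 and 1.29 in the Basal libraries, with 1.04 in Early, and with 1.18 and 1.07 in Late. It stayed A in at least 98.7% of its bins in every library, at a lower mean level in Early and Late. The next A runs were 147.25 to 155.65 Mb, which ends at the last bin of the chromosome, and 42.85 to 48.75 Mb, an island of A inside the proximal part. The longest B run, at chr4:68600001-75900000, averaged -0.89 and -0.90 in Basal, -0.79 in the Early library, and -0.87 and -0.78 in the Late pair. The B run from 62.45 to 68.45 Mb was the one of the 5 longest B runs with the most switched bins between Late and Basal (14 of 120), all the others holding between 0 and 2.

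The proximal part, up to 100 Mb, held 1893 bins, and A made up 22.8% and 22.9% of them in Basal, with 31.3% in Early, and with 29.6% and 30.9% in Late. The distal part held 1084 bins, with A at 75.9% and 76.3% in Basal, 78.0% in the Early library, and 79.7% and 78.8% in the Late pair. A was thus more frequent in the Early and Late libraries than in either Basal library on both sides, by more in the proximal part. Of all 2977 bins, 1137 (38.2%) were A in every library and 1377 (46.3%) were B in every library. The other 463 (15.6%) changed sign in at least 1 library, against 19.0% of the bins on the other analysed chromosomes.

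Replicates of a state agreed more closely on chromosome 4 than libraries of different states. The Late replicates had a Pearson r of 0.973 and a Spearman rho of 0.971 across its bins, and the Basal replicates had 0.991 and 0.986. The 4 pairs of a Late with a Basal library gave r from 0.928 to 0.947, the 2 pairs of Early with Basal 0.923 and 0.927, and the 2 pairs of Early with Late 0.937 and 0.945. These are correlations across neighbouring bins, which share reads and are no independent replicates. The SD between replicates of a bin was 0.165 in Late and 0.097 in Basal. Local scatter was the SD of a bin around the mean of the bins 100 kb to either side, scaled down for the noise of those bins. It was 0.157 and 0.162 in Basal, 0.251 in Early, 0.148 in replicate 1 of Late and 0.225 in its replicate 2. Depth is unknown, since the files give no read counts, and Early is a single library whose spread is taken from the Basal and Late pairs.

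The share of chromosome 4 in compartment A was higher in the Early and Late libraries than in Basal. It was 42.1% and 42.4% in the Basal libraries, with 48.3% in Early, and with 47.9% and 48.3% in Late. The Late and Basal libraries did not overlap, and Early lay with Late. Chromosome 4 had the lowest share of A of the 19 chromosomes analysed (18 autosomes and X) in both Basal libraries. In Early it ranked 9th, and in Late replicates 1 and 2 it ranked 9th and 8th. The difference between the mean shares of Late and Basal was 5.86 percentage points, against a range of -2.75 (X) to 4.53 (chromosome 5) on the other chromosomes. Early minus Basal was 6.03 points, against -4.33 (X) to 5.65 (chromosome 15). With 2 Late and 2 Basal libraries, an exact permutation test can give no 2-sided p below 0.333, so these shares carry no test. The difference of Late from Basal follows the switches by which the chromosome was chosen, and that of Early uses the same Basal libraries. The place of chromosome 4 among the chromosomes is therefore a description and supports nothing.

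**Figure D1:**
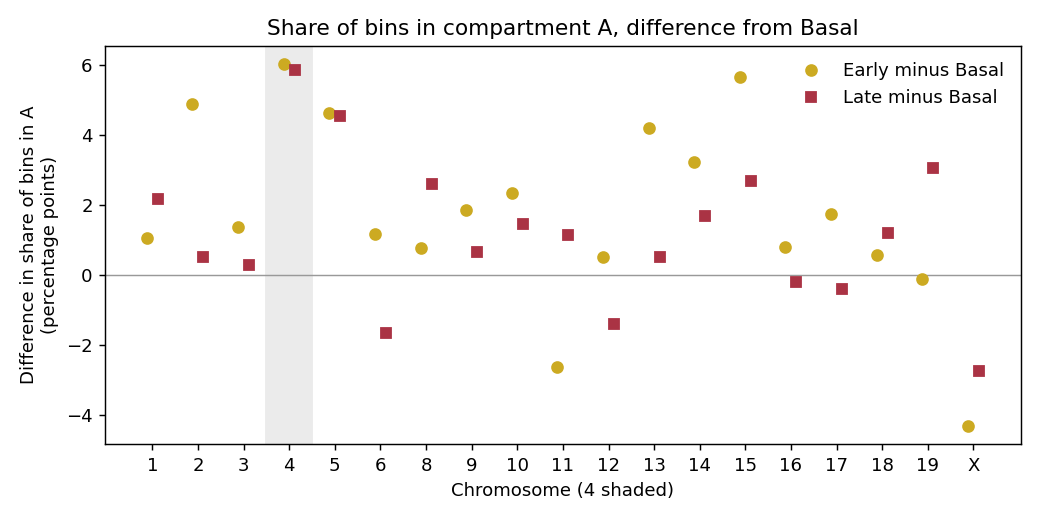
Difference from Basal in the share of bins with a positive PC1, in percentage points, for each analysed chromosome; circles are Early minus Basal, squares Late minus Basal, each from the means of the libraries of a state. Chromosome 4 (shaded), chosen by its Late and Basal signs, lies highest for both, at 6.03 and 5.86 points, while X lies lowest at -4.33 and -2.75.

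The authors' values averaged about 0 over chromosome 4 in each library, with an SD near 1, a scale set per chromosome, so a shift of the whole chromosome cannot be seen in them. What could be compared was the shape of the distribution. The median was -0.27 in both Basal libraries, -0.059 in the Early library, and -0.12 and -0.067 in the Late pair. The skewness was 0.41 and 0.40 in Basal, with 0.090 in Early, and with 0.15 and 0.10 in Late. Skew toward high scores was thus smaller in Early and Late. The far upper end was not lower in all of them. The score that 99% of the bins did not exceed was 1.84 and 1.83 in Basal, 1.88 in the Early library, and 1.64 and 1.77 in the Late pair. The score that 90% of the bins did not exceed was 1.53 and 1.52 in Basal, 1.38 in the Early library, and 1.40 and 1.39 in the Late pair. At the other end, the score exceeded by 90% of the bins was -1.12 and -1.13 in Basal, with -1.31 in Early, and with -1.24 and -1.30 in Late. The 10% and 90% points thus lay lower in Early and Late, while the middle of the distribution lay higher. By count, mean PC1 was higher in Late than in Basal in 44.1% of the bins of chromosome 4, with a median difference of -0.044, although its share of A was higher.

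**Figure D2:**
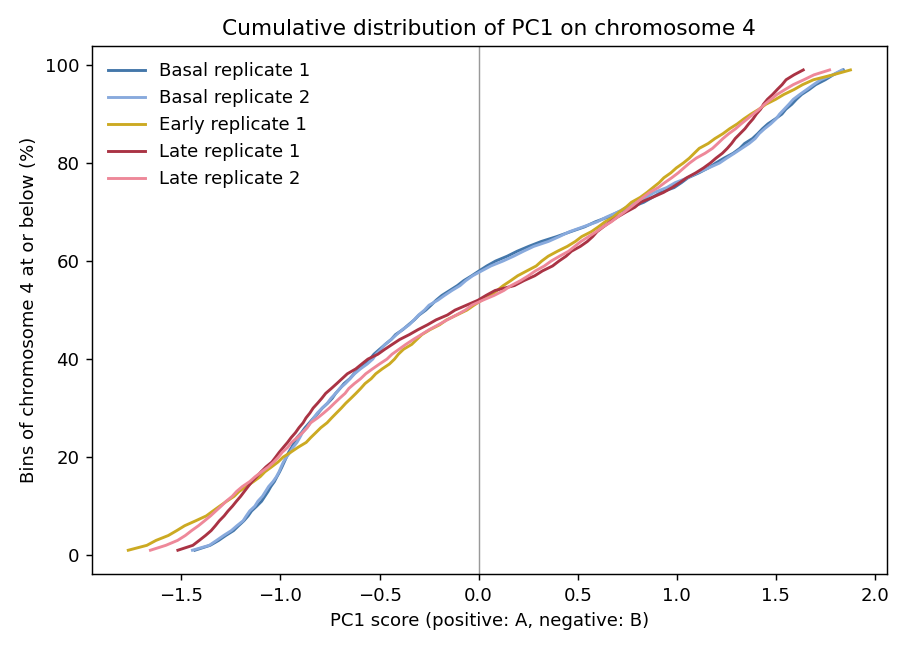
Cumulative distribution of PC1 over the 2977 bins of chromosome 4 in each library; the x axis is the PC1 score, the y axis the percentage of bins at or below it. The curves of Early and of both Late libraries cross 0 about 6 percentage points lower than the curves of both Basal libraries, and lie to the left of them at the 10% and 90% levels.

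To see which bins moved, they were classed by their PC1 in Basal replicate 1, and the difference was taken from Basal replicate 2, so that the noise of the classing library did not enter the difference. On chromosome 4 the largest positive mean difference lay just above the border, in the 152 bins between 0 and 0.25. There Early was 0.224 higher than Basal replicate 2, and Late replicates 1 and 2 were 0.241 and 0.276 higher. The same class on the other chromosomes, with 2793 bins, gave 0.064 for Early, and 0.038 and 0.045 for Late. In the 216 bins of chromosome 4 from -0.25 to 0, just on the B side, the mean differences were 0.183 for Early, and 0.104 and 0.146 for Late. At the A end, the 324 bins above 1.5 were lower by 0.233 in Early, and by 0.174 and 0.200 in Late, close to the 0.238, 0.139 and 0.166 of the other chromosomes. The strong B classes also differed from the other chromosomes in Early. In the lowest class, the 139 bins of chromosome 4 had a mean difference of -0.117, against 0.016 on the other chromosomes, and in the next class up, which ends at -1, it was -0.061, against 0.066. From -1 to -0.75 the Late replicates were at -0.060 and -0.058 on chromosome 4, and at 0.018 and 0.056 on the other chromosomes. All these differences share Basal replicate 2, and no test was made of them, since the chromosome was picked on values of the same libraries.

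**Figure D3:**
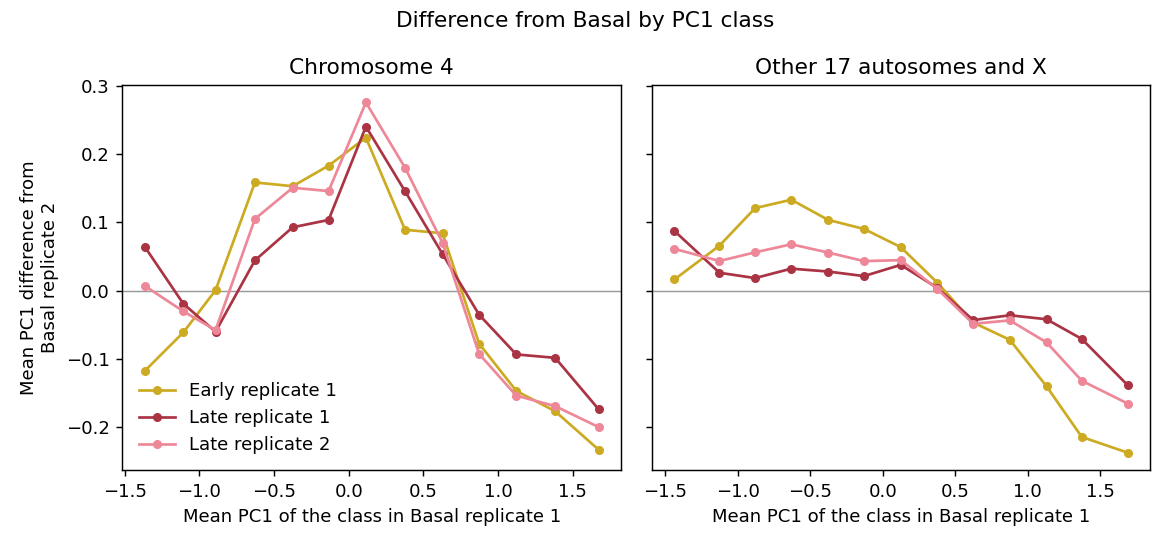
Mean PC1 difference of Early replicate 1 and of Late replicates 1 and 2 from Basal replicate 2 (y axis, PC1 units), for bins classed by their PC1 in Basal replicate 1 (x axis, class mean), on chromosome 4 (left) and on the other analysed chromosomes (right). On chromosome 4 the 3 curves peak between 0.224 and 0.276 in the class just above 0; on the other chromosomes the same class lies between 0.038 and 0.064.

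Late was set against Basal to find the stretches of chromosome 4 whose compartment differed in the Late state. By sign, 157 bins of chromosome 4 (5.27%) had 1 sign in both Late libraries and the opposite sign in both Basal libraries, against 5.75% over all 47652 bins analysed. X raised that share, with 13.4% of its bins switched, and the median over the 18 chromosomes other than 4 was 5.04%. Of the 157, 138 bins (6.90 Mb) passed from B to A and 19 bins (0.95 Mb) from A to B. On chromosome 4, B to A switches took 4.64% of the bins and A to B switches 0.638%, where all analysed bins had 3.13% of the one and 2.62% of the other. X alone held 250 of the 1247 A to B bins. B to A made up 87.9% of the switched bins on chromosome 4, against 30.3% (chromosome 6) to 82.6% (chromosome 5) on the others. The chromosome was chosen by this contrast, so nothing is read from the excess.

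The split depended on where 0 was set. With the median of the chromosome subtracted in each library, the B to A bins of chromosome 4 numbered 62 and the A to B bins 67 (48.1% B to A), near the 48.1% of the other chromosomes under the same scaling. Aligned medians make the share of A the same in all libraries, so a near balance follows by construction. With quantile-normalized values, which equalise the libraries over the genome and not within a chromosome, the counts were 125 and 20. With a 10 Mb moving mean subtracted they were 134 and 88.

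Switched bins lay near the border of A and B. Those from B to A had a median absolute PC1 of 0.370 in Late and 0.264 in Basal, and those from A to B of 0.204 in Late and 0.245 in Basal. The bins available for a switch also differed in number. In both Basal libraries, 366 bins of chromosome 4 (12.3%) lay in B within 0.5 of the border, and 188 (6.32%) lay in A within 0.5 of it. On the other chromosomes these shares were 9.80% and 8.54%. Of the 366 near-border B bins, 102 (27.9%) were A in both Late libraries, against 23.8% on the other chromosomes. Of the 188 near-border A bins, 14 (7.45%) were B in both Late libraries, against 20.2% on the other chromosomes. The share of near-border A bins that left A was thus lower than elsewhere, while the share of near-border B bins that left B was slightly higher. Both come from the contrast by which the chromosome was chosen.

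The B to A bins formed 50 runs, of which 23 were single bins and 6 had 5 bins or more. Next to 26 of these runs, holding 76 of the 138 bins, lay a bin that was A in both Basal libraries. Runs of this kind held 55.1% of the B to A bins on chromosome 4 and 47.2% on the other chromosomes. The A to B bins formed 11 runs, none longer than 150 kb.

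Along the chromosome the switches were clustered. The segment from 50 to 60 Mb held 37 bins from B to A, that from 90 to 100 Mb held 28, and that from 100 to 110 Mb held 23, with none from A to B in any of these. The segment from 60 to 70 Mb had 14 and that from 80 to 90 Mb had 13, each beside 3 from A to B. No switch in either direction was counted from 40 to 50, from 130 to 140 or beyond 150 Mb, where Basal was A in 82.6% to 100% of the bins. In the first 30 Mb the switches were nearly balanced, with 13 B to A and 11 A to B bins.

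**Figure D4:**
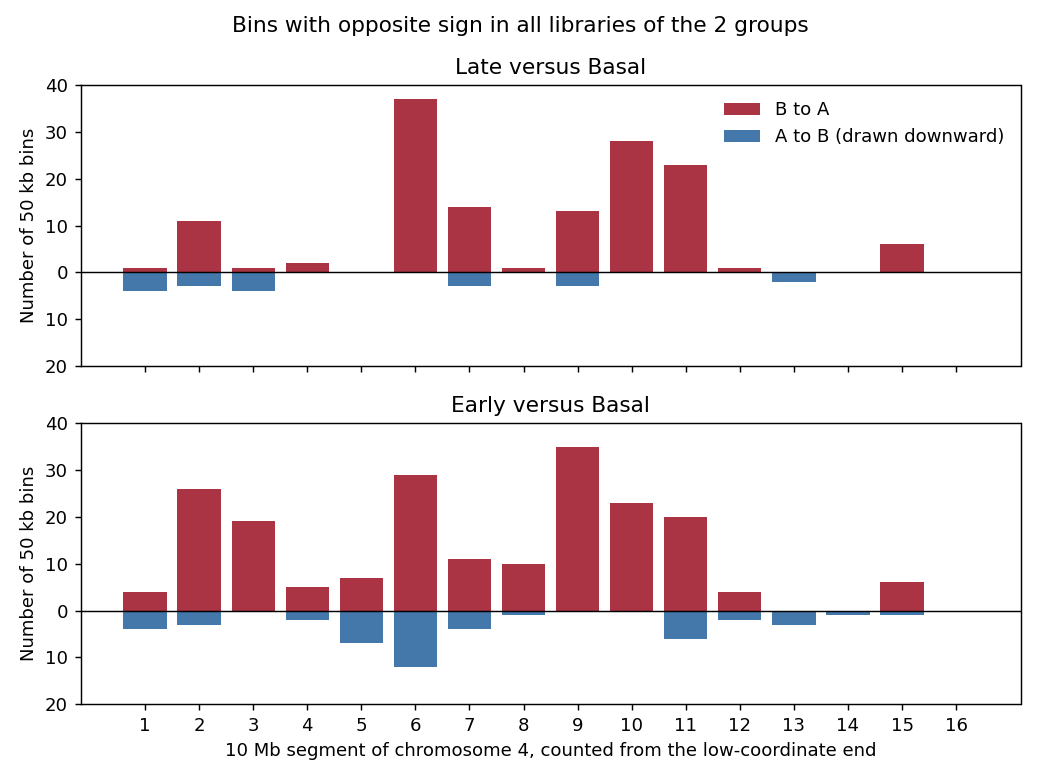
Number of 50 kb bins with opposite signs in all libraries of the 2 states, for each 10 Mb segment of chromosome 4 counted from the low-coordinate end, for Late versus Basal (top) and Early versus Basal (bottom); bars upward are B to A, bars downward A to B. Segment 6 holds 37 B to A bins for Late versus Basal, and segment 9 holds 35 for Early versus Basal.

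The longest B to A run was chr4:55650001-56400000. In it the mean PC1 was -0.34 and -0.39 in Basal, 0.14 in the Early library, and 0.45 and 0.35 in the Late pair. Every one of its 15 bins was called in the comparison of Late with Basal, and 7 in that of Early with Basal. No bin that was A in both Basal libraries lay directly beside this run. It sat inside a wider stretch of 55 called bins from 53850001 to 56700000, whose mean was 0.37 ± 0.0043 in Late and -0.35 ± 0.012 in Basal (SD, n = 2 each). On the distal side strong A was close in every library, with PC1 from 0.93 to 1.67 at 750 kb from the centre of the run. Without Basal replicate 1, 25 of the 55 bins kept their call.

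**Figure D5:**
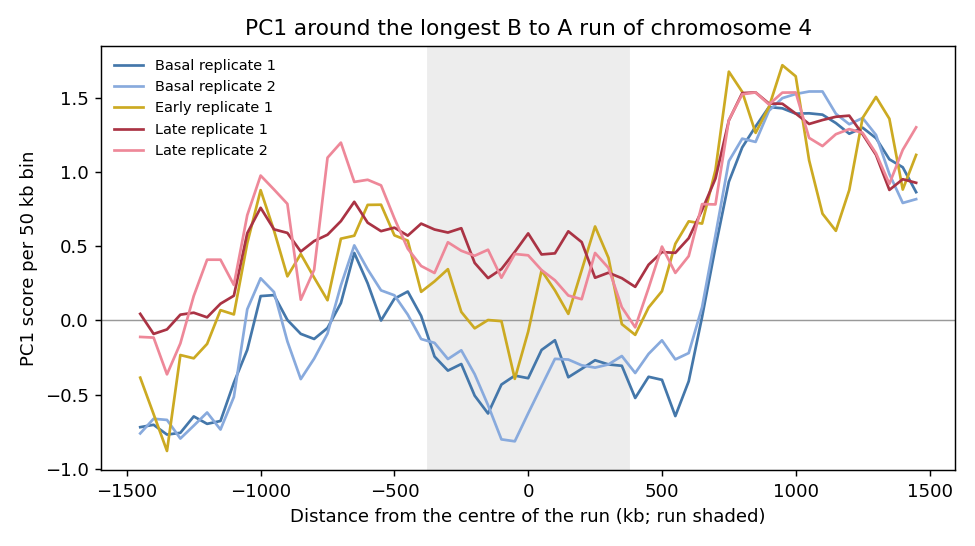
PC1 of each 50 kb bin in the 5 libraries (y axis) against the distance from the centre of the longest B to A run (x axis, kb), with the run shaded. Inside the run both Basal curves lie below 0 and both Late curves above 0, with means of -0.34 and -0.39 in Basal and of 0.45 and 0.35 in Late; Early crosses 0 within the run and averages 0.14.

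The second longest run, chr4:62450001-63050000, took up the proximal end of the B run that begins at 62.45 Mb, and lay next to Basal A. Its mean was -0.38 and -0.37 in Basal, with 0.24 in Early, and with 0.42 and 0.49 in Late, so that the border of A moved 600 kb into B in both Late libraries. The run at chr4:99950001-100550000 had -0.25 in both Basal libraries, 0.58 in the Early library, and 0.45 and 0.55 in the Late pair. At 94.85 to 95.25 Mb the means were -0.25 and -0.24 in Basal, with 0.27 in Early, and with 0.29 and 0.50 in Late. In these 3 runs Early lay on the A side with Late. The run at 97.45 to 97.80 Mb was different, at -0.24 and -0.20 in Basal, -0.18 in the Early library, and 0.42 and 0.24 in the Late pair, so that only the Late libraries were in A.

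The A to B runs were short. At 9.15 to 9.30 Mb PC1 was 0.26 and 0.44 in Basal, with 0.44 in Early, and with -0.060 and -0.17 in Late. At 28.75 to 28.90 Mb it was 0.14 and 0.19 in Basal, 0.11 in the Early library, and -0.40 and -0.32 in the Late pair. In both, Early lay on the A side with Basal. At 68.45 to 68.60 Mb it was 0.20 and 0.30 in Basal, with -0.22 in Early, and with -0.42 and -0.26 in Late, with Early on the B side beside Late.

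PC1 was also compared bin by bin with limma, a linear model that shares the estimate of the spread over all bins. Between Late and Basal this is the contrast the chromosome was chosen by, so its calls mark bins whose difference is large against the spread between libraries and support nothing further. By this measure, 471 bins of chromosome 4 (15.8%) differed between Late and Basal at an adjusted p of 0.05, against 16.4% of all bins analysed. X raised that share, with 48.3% of its bins called, and the median over the 18 chromosomes other than 4 was 14.1%. Chromosome 7 was left out of this fit, since its PC1 had opposite signs between libraries (lowest r -0.976). When all sequences were fitted as deposited, chromosome 7 included, no bin of chromosome 4 was called by limma, and 863 had an unadjusted p under 0.05. The named regions of this comparison then held no called bin. Of the 471, 291 lay nearer to A in Late and 180 nearer to B, where all bins gave 8.78% and 7.63% and chromosome 4 gave 9.78% and 6.05%. The median difference was 0.618 PC1 units among the higher bins, with a median SE of 0.125, and -0.528 among the lower ones, with a median SE of 0.123. The higher bins lay in B by their Basal mean in 73.5% of cases, against 66.2% on the other chromosomes. The lower bins did so in 55.6% of cases, against 33.0% on the other chromosomes. Leaving out Basal replicate 1 gave 115 calls, Basal replicate 2 gave 144, and Late replicate 1 gave 939. With chromosome medians subtracted, which lowers Late by 0.177 relative to Basal on chromosome 4, 145 bins were higher and 619 lower, so the balance of directions depended on the scaling.

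The called bins formed 58 regions toward A and 63 toward B. The strongest rise was at chr4:98900001-99450000, a region of 550 kb with 10 called bins. PC1 there was -0.72 and -0.71 in Basal, -0.38 in the Early library, and 0.22 and 0.15 in the Late pair. The difference between Late and Basal was 0.90, and it took these bins from well inside B to just past the border, while Early lay between, still in B. At chr4:104750001-105200000 PC1 was -0.25 and -0.19 in Basal, with 0.29 in Early, and with 0.62 and 0.55 in Late, a difference between Late and Basal of 0.80, with 8 bins called. At 62.20 to 63.05 Mb the difference was 0.78, and at 99.95 to 100.65 Mb it was 0.72. The call of the region at 99.95 Mb was lost in most of its bins with a 10 Mb moving mean subtracted, where the difference was 0.41, and in 7 of 14 bins without Basal replicate 1.

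The falls lay at other levels of PC1. At chr4:86650001-86900000 PC1 was 0.78 and 0.67 in Basal, 0.41 in the Early library, and -0.11 and 0.011 in the Late pair, down to the border (difference between Late and Basal -0.77). The 27 called bins at chr4:126800001-128200000 lay inside the longest A run. They were at 1.07 and 0.99 in Basal, with 0.47 in Early, and with 0.30 and 0.27 in Late (difference between Late and Basal -0.74), so this stretch kept a positive mean in every library at a much lower level. Without Basal replicate 1, 10 of these 27 bins kept their call. At 84.85 to 85.00 Mb PC1 was 0.81 and 0.85 in Basal, 0.66 in the Early library, and 0.13 and 0.11 in the Late pair, a fall within A that was not called without Basal replicate 2.

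Other falls took place within B. At chr4:76500001-77950000 PC1 was -0.21 and -0.26 in Basal, with -0.39 in Early, and with -0.96 and -0.82 in Late, with 27 bins called. This stretch of weak B lay deeper in B in both Late libraries. At 36.25 to 36.55 Mb it was -0.18 and -0.21 in Basal, -0.61 in the Early library, and -0.78 and -0.89 in the Late pair. Without Basal replicate 1 the first of these kept its call in 8 of 27 bins and the second in 1 of 6. Without Basal replicate 2 the first kept 11 and the second 3.

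For the Early state the same question was put to 1 library, set against the same 2 Basal libraries as the Late comparison, which also entered the choice of the chromosome. By sign, 245 bins of chromosome 4 differed (8.23%, against 9.78% of all bins). On X 22.1% differed, and the median over the 18 chromosomes other than 4 was 8.59%. Among the 245, 199 bins (6.68%) were A in Early and B in both Basal libraries, against 5.7% of all bins, and 46 (1.55%) were the reverse, against 4.09%. B to A made up 81.2%, with the other chromosomes between 31.9% (chromosome 11) and 79.4% (chromosome 2). With medians subtracted the counts were 101 and 94. With a moving mean of 10 Mb subtracted they were 194 and 158.

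The limma calls for Early take its spread from the Basal and Late pairs and do not measure variation between Early libraries. In limma, 531 bins (17.8%) passed, against 19.9% of all bins, with 249 higher (8.36%, against 9.97%) and 282 lower (9.47%, against 9.98%). On X 52.1% passed, and the median over the 18 chromosomes other than 4 was 18.0%. On chromosome 4 the median difference was 0.662 among the higher bins, with a median SE of 0.153, and -0.626 among the lower ones, with a median SE of 0.149. With all sequences fitted as deposited the count was 53, and of the named regions of this comparison only that at 58.20 Mb kept its call in most of its bins (2 of 3). It was 129 without either one of the Basal libraries and 1043 without either one of the Late libraries. With chromosome medians subtracted, which lowers Early by 0.211 relative to Basal, 98 bins were higher and 668 lower. By sign, chromosome 4 was mostly B to A as deposited, while by limma it had more falls than rises. Of the calls, 177 of the 282 lower bins lay beyond 100 Mb, in mainly A chromatin, and 218 of the 249 higher bins lay before it.

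The segments from 80 to 90 Mb and from 20 to 30 Mb had the largest mean differences of Early over Basal, at 0.32 and 0.28. From 80 to 90 Mb, A covered 33.0% and 35.0% of the bins in Basal, with 54.5% in Early, and with 39.0% and 45.5% in Late, and 52 bins were called higher in Early and none lower. From 20 to 30 Mb, A covered 6.50% in both Basal libraries, 16.5% in the Early library, and 5.50% and 6.00% in the Late pair, with 42 bins called higher and 1 lower. Within 80 to 90 Mb, the strongest rise was at chr4:87900001-88250000, at -0.26 and -0.31 in Basal, with 0.75 in Early, and with -0.013 and 0.34 in Late. Its Early value exceeded Basal by 1.03 (adjusted p by limma no higher than 0.0340 in any of 7 bins), and the 2 Late libraries lay on both sides of 0. At chr4:87100001-87800000 Basal was at 0.035 and 0.17, Early at 0.99, and Late at 0.31 and 0.50. At chr4:85200001-85400000 Basal was at -0.68 and -0.75, Early at 0.18, and Late at -0.70 and -0.59. That small region was in A in the Early library alone. Its call was lost in 2 of its 4 bins with a 10 Mb moving mean subtracted, where the difference was 0.57.

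Other rises of Early lay at 58.20 to 58.35 and at 99.90 to 100.55 Mb. The first was at the border in Basal, at 0.016 and -0.041, with 0.91 in Early and with 0.58 and 0.44 in Late, so that the Early and Late libraries were all in A. The second exceeded Basal by 0.91 in Early, and kept its call in 5 of 10 bins without either one of the Basal libraries. A B to A run of Early at 24.75 to 25.10 Mb was at -0.34 and -0.33 in Basal, 0.23 in the Early library, and -0.39 and -0.11 in the Late pair, in A in Early alone.

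Beyond 120 Mb the Early library was lower inside strong A. At chr4:129350001-129900000 PC1 was 1.59 and 1.61 in Basal, 0.77 in the Early library, and 1.28 and 1.16 in the Late pair (difference between Early and Basal -0.83, limma adjusted p at most 0.0490 in its 9 called bins). At 126.30 to 126.55 Mb it was 1.61 in both Basal libraries, with 0.79 in Early, and with 1.33 and 1.10 in Late. Neither region left A, and both had most of their bins no longer called when a 10 Mb moving mean was subtracted (differences of -0.48 and -0.47). The region at 126.30 Mb also kept its call in only 2 of 5 bins without Basal replicate 2. At the centromere end, chr4:3000001-3250000 was at -0.49 and -0.56 in Basal, -1.31 in the Early library, and -0.60 and -0.48 in the Late pair. Without Basal replicate 1, 2 of its 5 bins kept their call.

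The longest A to B run of Early was chr4:59550001-59900000. PC1 was 0.25 and 0.23 in Basal, with -0.44 in Early, and with 0.28 and 0.27 in Late, so that Late lay at the Basal level and Early alone in B. All 7 bins were called in Early versus Basal (limma adjusted p at most 0.0375), and none in Late versus Basal. A shorter one at 44.40 to 44.55 Mb was at 0.52 and 0.42 in Basal, with -0.25 in Early, and with 0.71 and 0.48 in Late. The run at 59.15 to 59.40 Mb was at 0.13 and 0.24 in Basal, -0.24 in the Early library, and 0.40 and 0.25 in the Late pair, and so was also in B in Early alone.

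Late was also set against Early, and these differences use no Basal values, although the Late libraries entered the choice of the chromosome and the Basal pair enters the estimate of the spread. In limma, 265 bins of chromosome 4 (8.90%) passed, against 12.7% of all bins, with 128 higher in Late (4.30%, against 6.28%) and 137 lower (4.60%, against 6.44%). Chromosomes 19 and 16 raised the share of all bins, with 40.2% and 35.0% passing. The median over the 18 chromosomes other than 4 was 10.2%. With all sequences fitted as deposited limma called 0, and 631 bins had an unadjusted p under 0.05. The share of called bins ranked 12th of 19 chromosomes. By sign, 172 bins differed (5.78%, against 7.56% of all bins). Of these, 77 bins were A in both Late libraries and B in Early (2.59%, against 3.46%), and 95 were the reverse (3.19%, against 4.1%). Here B to A made up 44.8% of the switched bins, which is inside the range of 24.5% to 80.0% on the other chromosomes. The segments from 20 to 30 and from 80 to 90 Mb, where Early exceeded Basal most, held 45 and 29 of the 137 bins lower in Late. In limma these were the segments with the most bins lower in Late. The count was 124 without either one of the Basal libraries, 532 without Late replicate 1 and 627 without Late replicate 2.

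By the path of signs, 103 bins of chromosome 4 (3.46%) were B in both Basal libraries and A in Early and in both Late libraries, against 1.93% of the bins on the other chromosomes. The reverse path, from A in Basal to B in Early and Late, was taken by 4 bins (0.134%, against 1.49%). A in the Early library alone was found in 75 bins (2.52%, against 2.45%), and A in both Late libraries alone in 35 bins (1.18%, against 1.10%). B in the Early library alone was found in 37 bins (1.24%, against 2.01%), and B in both Late libraries alone in 15 (0.504%, against 1.26%). The paths rest on the same 2 Basal libraries and carry no test. Those on which Late and Basal differ are parts of the switches by which the chromosome was chosen, so nothing is read from their shares.

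Bins without a value in 1 or more libraries numbered 26 of the 3003 listed on the chromosome, and these were not analysed. They lay at 42.05 to 42.85 Mb (3 bins), 60.10 to 61.30 Mb (13 bins), 122.15 to 122.20 Mb (1 bin) and 145.30 to 147.10 Mb (9 bins). Early lacked all 26, Late replicates 1 and 2 lacked 13 and 17, and each Basal library lacked 1. Local scatter was highest in Early, at 0.251, while the Late library that lacked 13 bins had the lowest of the 5, at 0.148. The part of this scatter in the differences between states was not tested.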

How the data were processed

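Hi-C was made from sorted hippocampal nuclei in 5 libraries. Each came as a deposited table of PC1, a signed score per 50 kb bin, for which the submitters' processing notes name HOMER and mm9, made by the authors; per the file names the score was computed in windows of 100 kb. The HOMER version, aligner, read filters and the way the sign was set were not stated in the sources used. Depth is unknown, so no counting interval can be given.

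Bins were joined by position and kept where all 5 libraries had a value. Sequences outside the autosomes and X, such as chr4_random, were left out. So were chromosomes on which any pair of libraries correlated below 0.5 (chromosome 7, lowest r -0.976), which left 47652 bins. The fit of all sequences as deposited held all of these. PC1 as deposited was compared in 1 limma 3.58.1 fit (R 4.3.3) of all 5 libraries, with 2-sided tests, 2 residual degrees of freedom and 6.60 more from the shared prior, and Benjamini-Hochberg adjustment over all 47652 bins at 0.05. The spread behind each p-value is that between libraries, which the labels call biological replicates without naming their animals. Neighbouring bins overlap. Replicate numbers did not pair the libraries. A bin was counted as switched where every library of one state had the opposite sign to every library of the other. Regions were named by a fixed rule, which put neighbouring called bins of like sign together, bridging single uncalled bins. It then took, per comparison and direction, the 5 regions of at least 3 called bins with the largest mean difference. It also took the 5 longest switch runs of Late versus Basal and the 3 longest of Early versus Basal per direction, and the 5 longest Basal runs of each compartment. A region's values are means over its called bins, and its largest adjusted p, taken over the same bins, is under 0.05 by this rule. The chromosome, the rules and the gene list were chosen with earlier results of these data known. The fit was also run on simulated data with independent noise of equal size in all bins and libraries. In the real data neighbouring bins share reads and local scatter differs between libraries, so that run does not measure error rates here. Of 62 listed genes, all were found by symbol in the RefSeq table of GRCm38.p6, which was used for names and order only. Python 3.11.15, numpy 2.4.6, pandas 2.3.3, scipy 1.17.1 and matplotlib 3.10.9 did the rest.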

Additional observations from a re-analysis of the deposited data

Results flagged for a closer look

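The difference of Late from Basal and the difference of Early from Basal were set against each other by the limma comparison of Late versus Early, which called 265 bins of chromosome 4, and 0 with all sequences fitted as deposited (631 at an unadjusted p under 0.05). Early is 1 library whose spread is borrowed from the Basal and Late pairs, so these calls do not measure variation between Early libraries. In the 5 strongest regions higher in Late, Late minus Early was 0.82 at 45.40 to 45.60 Mb, 0.79 at 63.45 to 63.80 Mb, 0.77 at 44.35 to 44.60 Mb, and 0.76 at both 59.10 to 59.25 Mb and 2.95 to 3.25 Mb (limma adjusted p at most 0.0432 in each called bin). Regions were built from called bins alone, so these p-values lie under 0.05 by construction. At 45.40 Mb PC1 was 1.28 and 1.15 in Basal, with 0.42 in Early, and with 1.23 and 1.26 in Late, so Early alone was low. The region at 63.45 Mb was the exception among these: PC1 was at -1.10 and -1.13 in Basal, -1.26 in the Early library, and -0.47 and -0.46 in the Late pair, so Late alone was high.

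In the 5 strongest regions lower in Late, Late minus Early was -0.98 at 80.50 to 80.75 Mb, -0.82 at 85.20 to 85.40 Mb, -0.81 at 20.20 to 20.35 Mb, -0.78 at 76.15 to 76.75 Mb and -0.75 at 87.90 to 88.15 Mb (limma adjusted p at most 0.0392 in each called bin, again by construction under 0.05). At 80.50 Mb PC1 was -0.38 and -0.21 in Basal, with 0.41 in Early, and with -0.62 and -0.52 in Late. At 20.20 Mb it was -0.58 and -0.49 in Basal, 0.39 in the Early library, and -0.50 and -0.34 in the Late pair. Both passed into A in the Early library alone. At 76.15 Mb Late was low, with -0.82 and -0.71, against 0.014 in Early and -0.29 and -0.24 in Basal. With a 10 Mb moving mean subtracted, the call was kept in 2 of 4 bins at 45.40 Mb, 1 of 3 at 59.10 Mb, 3 of 6 at 2.95 Mb, 2 of 4 at 85.20 Mb and 1 of 4 at 87.90 Mb. Without either one of the Basal libraries, 2 of the 4 bins at 45.40 Mb kept their call. The local scatter of Early was 0.251, the largest of the 5, and its part in these differences was not tested.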

How the results depend on the processing

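The order of values below is Late versus Basal, then Early versus Basal, then Late versus Early. Leaving out 1 library in turn gave 115 to 939, 129 to 1043 and 124 to 627 bins called by limma on chromosome 4, with 86 to 471, 76 to 507 and 59 to 317 higher and 29 to 468, 49 to 536 and 65 to 310 lower. B to A switches then numbered 167 to 185, 231 to 237 and 113 to 114, and A to B switches 25 to 30, 54 to 55 and 112 to 125, so that B to A made up 85.5% to 87.1%, 80.8% to 81.4% and 47.5% to 50.4%. With every sequence as deposited, chromosome 7 included, limma called 0, 53 (30 higher, 23 lower) and 0 bins. The first and last of these had 863 and 631 bins at an unadjusted p under 0.05. That fit held chromosome 7 with its opposite signs between libraries (lowest r -0.976), and had a prior of 2.58 degrees of freedom, against 6.60. At an adjusted p of 0.1, limma called 773 (355 lower), 853 (412 higher, 441 lower) and 518 bins (263 higher, 255 lower). With chromosome medians subtracted, Late versus Basal had 764 calls (145 higher, 619 lower) and Early versus Basal 98 higher and 668 lower. Switches were then 62 B to A and 67 A to B (48.1%) for Late versus Basal, and 101 and 94 (51.8%) for Early versus Basal. With a 10 Mb moving mean subtracted, Early versus Basal had 301 calls (157 higher, 144 lower) and Late versus Early 146 (78 higher, 68 lower). A to B switches were then 88 (60.4% B to A) for Late and 158 (55.1%) for Early versus Basal, and Late versus Early had 143 B to A. With each library at least 0.1 from 0, B to A and A to B switches were 84 and 6 (93.3%), 112 and 22, and 37 and 43. With chromosome 4 fitted alone, 294 bins were lower in Late than in Basal. With limma's array weights Early versus Basal had 856 calls (416 higher, 440 lower). Quantile normalization gave 75.4% B to A for Early versus Basal, and 43.0% of Basal bins in A. The share of A was 49.983% in Late and in Basal with medians subtracted, and 48.9% in Basal, 50.5% in Early and 50.6% in Late with the moving mean. The cause of these changes was not tested, apart from the medians, which set the share by construction.

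Left-out libraries apart, 21 counts and shares were recomputed under 156 alternatives, and 99 of these stayed within their limits. The limit was 1.5 times for a count, and the SD of replicates for the share of A in Basal and Late. For the share of A in Early and the shares of B to A it was a 95% binomial interval, which treats neighbouring bins as independent. The 30 named regions kept their sign in all 460 alternatives, and 53 of these left too few called bins for a call, 29 of them with every sequence as deposited. Replicates of the same number did not deviate together (r = 0.055 between the Basal and Late replicate differences on chromosome 4), so they share only a number. With the replicate number as a block, limma called 514, 534 and 233 bins. Depth is unknown, Early is 1 library, and calls of adjacent bins are not independent.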

Other observations

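Chromosome 5 had the next highest share of B to A among switched bins. Between Late and Basal, chromosome 4 had 138 such bins beside 19 in the other direction, and chromosome 5 had 123 beside 26. The median PC1 was higher in Late by 0.177 on chromosome 4 and by 0.188 on chromosome 5. Early minus Basal in the share of A was 6.03 percentage points on chromosome 4 and 4.62 on chromosome 5, which was named after its values were seen.

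The segment from 70 to 80 Mb, unlike its neighbours, had more bins called lower than higher in Late. Late was lower there in 38 called bins and higher in 7. Most of the lower bins lay close together, 27 at 76.50 to 77.95 Mb and 4 at 76.15 to 76.40 Mb. The 7 higher bins lay at 71.55 to 71.95 Mb, so the fall was not one of the whole segment. A covered 1.50% and 3.00% of the segment's bins in Basal, with 6.50% in Early, and with 0.500% and 5.00% in Late. The adjoining segments, 60 to 70 and 80 to 90 Mb, had 30 and 28 bins called higher in Late and 10 and 8 called lower. From 110 to 120 Mb, 26 bins were called lower in Late and 2 higher, and 52 lower and 5 higher in Early, while the share of A stayed between 43.5% and 45.0% in all 5 libraries.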
